A study of Mus musculus with 16 samples.

Results

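The genes that make retinoic acid and carry its signal were examined in explants of mouse epicardium, the outer cell layer of the heart, cultured with or without blebbistatin. They were Rdh10, Aldh1a1 and Aldh1a2 for synthesis, Crabp2 for transport inside the cell, Rara, Rarb, Rarg and Rxra for the receptors, and Stra6 for uptake of retinol. They were chosen by name, and 8 of the 9 had a row in the count table of 15805 genes. Stra6 was not analysed here.

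RNA was sequenced from 8 primary explants with blebbistatin and 8 controls that had none. Blebbistatin inhibits myosin II, the motor that lets cells pull on their actin filaments, and the labels name nonmuscle myosin II as its target here. Per the labels, both groups were C57BL6 epicardial cells cultured on collagen gel, and no genotype, age or solvent of the drug is given in the sources used here. The dose reads 20 in the labels with its unit written in conflicting ways, so the concentration is not settled. Nothing in the labels says whether the explants came from separate animals, so p-values measure only the spread between these explants. Library totals were 20176386 to 89620195 counts with blebbistatin and 27065611 to 60321622 in controls.

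As background, retinoic acid is made from retinol, a form of vitamin A. RDH10 oxidises retinol to retinaldehyde, and the ALDH1A enzymes turn retinaldehyde into retinoic acid. ALDH1A2 makes most of the retinoic acid of the early mouse embryo and marks the embryonic epicardium, which is a source of the signal for the heart muscle beneath it. Retinoic acid reaches the nucleus with the help of the binding protein CRABP2 and binds the receptors RARα, RARβ and RARγ, which sit on DNA as pairs with an RXR such as RXRα. The classic binding element is a direct repeat of a short core motif, and the gene Rarb, itself a known target of retinoic acid, carries one next to its start.

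That element is shown because Rarb doubles as receptor and read-out of the pathway. The 250 bases before the start that RefSeq's window gives for Rarb, which lies inside the span of the gene in GENCODE M21 and has other starts upstream of it (RefSeq, GRCm38.p6, chr14:16575477-16575726, minus strand) are given 5′ to 3′ with the direct repeat that the search below found in capitals:

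Rarb: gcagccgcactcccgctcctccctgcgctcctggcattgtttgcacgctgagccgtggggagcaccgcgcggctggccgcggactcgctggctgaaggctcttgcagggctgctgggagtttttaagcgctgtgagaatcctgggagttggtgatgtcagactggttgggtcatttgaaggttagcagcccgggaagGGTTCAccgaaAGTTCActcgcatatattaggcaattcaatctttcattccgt

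The search took the cores AGGTCA or AGTTCA or GGGTCA or GGTTCA, in any pair and on either strand, as direct repeats with a spacer of 1, 2 or 5 bases, in windows that run from 250 bases before to 50 after each start. The repeat with a spacer of 5 was in 32 of 32851 windows (0.0974%), that of Rarb included, where it lies 53 to 37 bases before that start. A spacer of 1 was in 0.222% of the windows and a spacer of 2 in 0.268%. Of the 16 windows found for 7 of the 9 genes (none for Rdh10 or Crabp2), the Rarb window alone held any of the 3 repeats. The only other window with the 5-base spacer among genes of the retinoid lists used below was that of Cyp26a1, for an enzyme that breaks down retinoic acid and whose counts were not analysed here. The repeats of these genes differ in one core and in the spacer, that of Cyp26a1 being on the strand opposite the gene:

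Rarb: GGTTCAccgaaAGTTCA

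Cyp26a1: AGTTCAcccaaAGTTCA

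A match is a description of the letters and does not show that a receptor sat there.

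The explants were rich in RNA of Aldh1a1 and Aldh1a2 and poor in that of Rarb. Levels of different genes were compared per length, as CPM (counts scaled to library size, with TMM factors) per kb of exon (GENCODE M21), over all 16 libraries. Aldh1a2 (chromosome 9, 71215789 to 71296243) averaged 30.0 CPM per kb with a range of 18.1 to 37.9, and stood above 93.1% of the tested genes that have an exon length. Aldh1a1 (chromosome 19, 20492715 to 20643465) averaged 28.8 CPM per kb (13.0 to 61.4). These levels overlapped, and each of the 2 enzymes was the higher one in 8 of 16 libraries.

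Among the receptors, Rxra (chromosome 2, 27676440 to 27762957) averaged 14.4 CPM per kb (8.91 to 19.7). Rara (chromosome 11, 98927818 to 98974942) followed at 7.68 CPM per kb (5.76 to 9.83). Rxra was above Rara in 16 of 16 libraries, although their ranges overlapped. Rarg (chromosome 15, 102234938 to 102257517) averaged 2.33 CPM per kb (1.01 to 4.06), and its range lay wholly below that of Rara, the only neighbours in the order whose ranges did not meet.

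Rdh10 (chromosome 1, 16105774 to 16133734) averaged 2.001 CPM per kb (0.680 to 3.65), Crabp2 (chromosome 3, 87948666 to 87953376) 1.82 (0 to 5.24) and Rarb (chromosome 14, 16430839 to 16819156) 0.415 (0.0774 to 1.33). Rarb exceeded 8.56% of the tested genes, the lowest place of the 8. With the longest transcript in place of all exons, Aldh1a1 came first at 60.2 CPM per kb against 30.0 for Aldh1a2, and Crabp2 came before Rdh10, so the order within these pairs depends on the length used. Reads of Rarb are uncertain, because 1793 of its exonic bases also belong to exons of Top2b on the other strand (mean 122 CPM in treated explants, against 108 CPM in controls), and the sources used here do not give the strand setting of the counting.

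**Figure D1:**
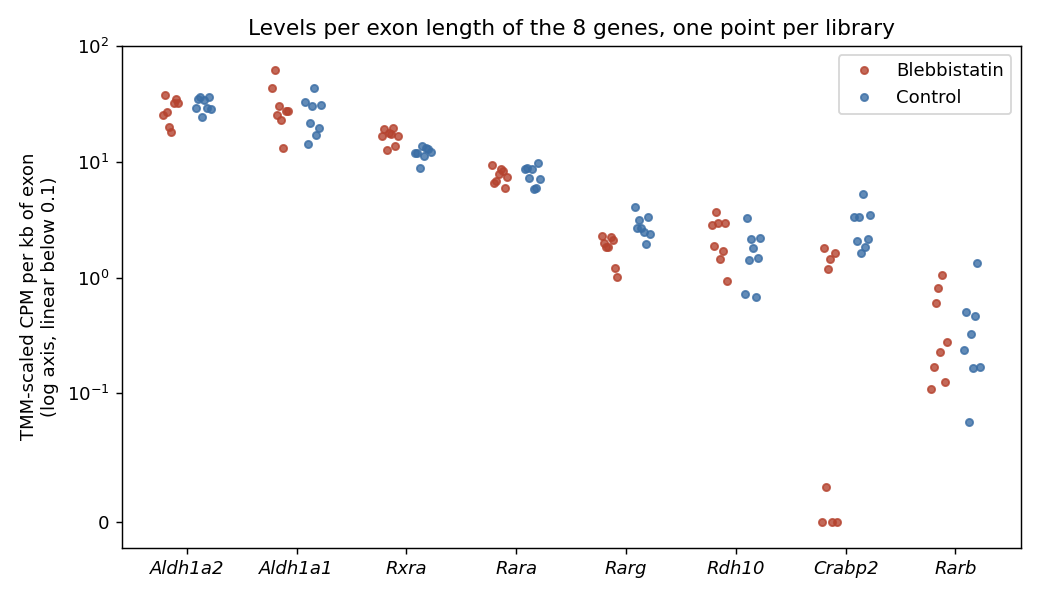
Levels of the 8 genes in TMM-scaled CPM per kb of exon on a log axis (linear below 0.1), with 1 point per library and blebbistatin left of control for each gene. Aldh1a2 and Aldh1a1 lead at about 30 CPM per kb, Rarb is lowest, and 3 blebbistatin libraries hold Crabp2 at 0.

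The comparison of blebbistatin with control asked whether blocking myosin II went with a change in these genes. By edgeR's quasi-likelihood test on the whole table, 0 of the 8 genes passed an adjusted p of 0.05 (Benjamini-Hochberg over 15675 genes), where 0.606% of all tested genes did. At an unadjusted p under 0.05 there were 3 of 8, Rxra higher and Rarg and Crabp2 lower with blebbistatin, where 12.2% of all genes were. DESeq2 called 1 of 8, Rxra (2.7% of all genes called), and limma voom 0 of 8 (0.721% of all genes called). The CPM ranges of the groups overlapped for all 8 genes, as they did for all but 0.242% of the tested genes. The median log2 fold change of the 8 was 0.01 (blebbistatin over control), against 0.04 over all tested genes. In bulk samples such as these, fewer cells of a type and less RNA per cell cannot be told apart.

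Rxra, which encodes the partner shared by the retinoic acid receptors and several other nuclear receptors, came closest to the threshold. Its level was 69.2 CPM at the lowest, 93.7 at the median and 108 at the highest with blebbistatin, against 48.6, 65.6 and 75.1 CPM in controls. Every treated library exceeded the median of the controls and 6 of 8 exceeded the highest control, while blebbistatin 3 and 7 lay among the controls. The means were 91.5 ± 13.4 CPM in treated explants, against 65.4 ± 8.13 CPM in controls (SD, n = 8 each). The log2 fold change was 0.49 (SE 0.11, edgeR adjusted p = 0.0538), or 1.40-fold with a 95% confidence interval of 1.19 to 1.65. DESeq2 called it (adjusted p = 0.0073), limma voom did not (adjusted p = 0.0613), and edgeR did so without blebbistatin 3 (adjusted p = 0.0367) or without control 6 (adjusted p = 0.0431). The adjusted p ran from 0.0073 to 0.304 over 28 other fits, in which the log2 fold change stayed between 0.43 and 0.53.

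Rarg encodes the receptor RARγ. With blebbistatin it stood at 4.32 CPM at the lowest, 8.19 at the median and 9.68 at the highest, against 8.37, 11.5 and 17.3 CPM in controls. The 8 treated libraries were below the control median and 4 of them below every control. The means were 7.75 ± 1.99 CPM in treated explants, against 12.1 ± 2.77 CPM in controls (SD, n = 8 each). The log2 fold change was −0.64 (SE 0.21, edgeR adjusted p = 0.185), with an interval of 0.470-fold to 0.871-fold. The gene did not pass in any of the 28 other fits, where the adjusted p ran from 0.0616 to 0.746.

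Rara, for RARα, gave values that lay on top of each other. It ran from 25.8 to 40.5 CPM in treated explants (median 33.2) and from 25.1 to 42.9 CPM in controls (median 34.6). The log2 fold change was −0.03 (SE 0.14, edgeR adjusted p = 0.951), and the interval reached from 0.798-fold to 1.20-fold. Rarb, for RARβ, ran from 0.577 to 5.58 CPM with blebbistatin (median 1.33) and from 0.407 to 6.98 CPM in controls (median 1.47). It varied more between explants than between groups, with an SD of 84.9% of the mean with blebbistatin and 97.8% in controls. The log2 fold change of Rarb was 0.04 (SE 0.59, edgeR adjusted p = 0.985), and its interval of 0.442-fold to 2.41-fold leaves room for a change of 2-fold either way.

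**Figure D2:**
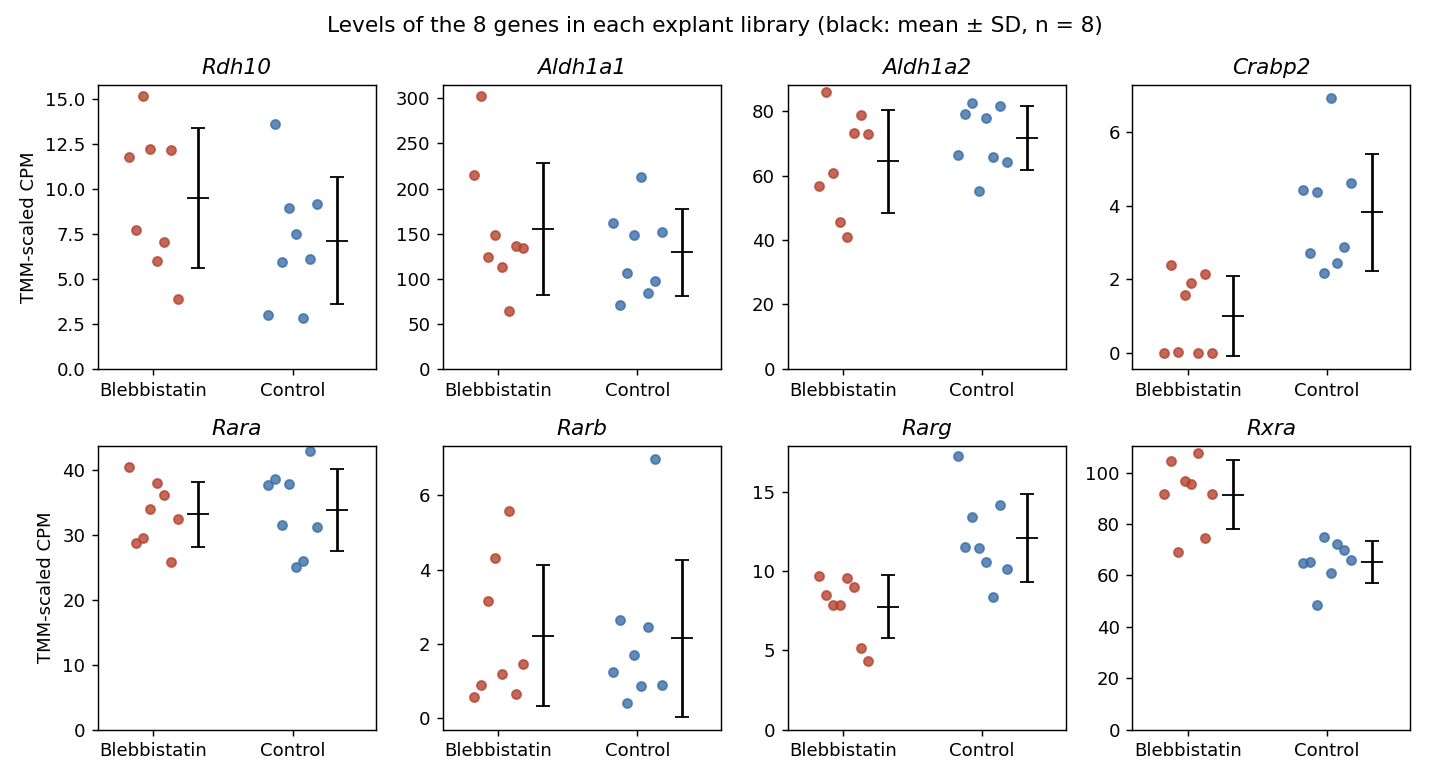
TMM-scaled CPM of the 8 genes, 1 panel per gene, each point a library, blebbistatin left and control right, with the mean and SD in black (n = 8 each). Rxra sits higher and Rarg and Crabp2 sit lower with blebbistatin, with groups that overlap in each panel.

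Crabp2, the carrier of retinoic acid to its receptors, was uneven among the treated explants. Blebbistatin 1, 6 and 8 had 0 counts of it, which allows levels of up to 0.0641, 0.142 and 0.0641 CPM (3 counts in each library on the TMM scale, counting error only), and blebbistatin 3 had 2 counts. The other 4 treated libraries held 33 to 185 counts, or 1.58 to 2.39 CPM, while the 8 controls held 65 to 426 counts, or 2.17 to 6.93 CPM. Thus 7 of 8 treated libraries lay below every control, and blebbistatin 2 lay above control 4 alone. The means were 1.01 ± 1.09 CPM in treated explants, against 3.81 ± 1.59 CPM in controls (SD, n = 8 each).

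In edgeR the log2 fold change of Crabp2 was −1.92 (SE 0.89, adjusted p = 0.395), with an interval of 0.0725-fold to 0.964-fold. It depended on the fit: −4.26 in limma voom (adjusted p = 0.0555) and −0.72 with a covariate for epicardial markers. A 2-sided exact permutation test of log2 CPM, run on every tested gene after the values had been seen, gave a difference of −3.38 for Crabp2 with p = 0.000311 and an adjusted p of 0.0658 over all genes. That test called 0 of 15675 genes (0% of all genes), since its smallest adjusted p was 0.0641, with 1997 genes at an unadjusted p under 0.05. The exact test gave a difference of 0.48 for Rxra (p = 0.00109, adjusted p = 0.0986) and −0.66 for Rarg (p = 0.0014, adjusted p = 0.106), and by it the other 5 genes did not pass an unadjusted 0.05.

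Among the 15675 tested genes, 21 genes, Crabp2 among them, were at 0 in at least 3 treated libraries and in no control. In the other direction, 10 genes were at 0 in at least 3 controls and in no treated library. Blebbistatin 1 and 8 also had the fewest genes detected, 15468 and 15492, against 15634 to 15795 in controls, while blebbistatin 6 had 15739. Without blebbistatin 1 and 8 the log2 fold change of Crabp2 was −1.50 (edgeR adjusted p = 0.349).

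None of the 3 synthesis genes passed the test, and their groups overlapped widely. Aldh1a1 ran from 64.2 to 303 CPM with blebbistatin (median 135) and from 70.6 to 213 CPM in controls (median 127). The ranges were alike, and the extremes of all 16 libraries, blebbistatin 6 and blebbistatin 2, were both treated. The log2 fold change of Aldh1a1 was 0.26 (SE 0.26, edgeR adjusted p = 0.741), with an interval of 0.819-fold to 1.76-fold. It was 0.05 without blebbistatin 2 (adjusted p = 0.951) and 0.85 with the covariate for epicardial markers (adjusted p = 0.278). Its neighbour and close paralog Aldh1a7 had 1.73 CPM in treated explants, against 1.70 CPM in controls, and reads may be split between them.

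Aldh1a2 ran from 41.1 to 85.9 CPM with blebbistatin (median 66.8) and from 55.3 to 82.5 CPM in controls (median 72.2). The treated libraries spread more widely, with an SD of 24.9% of the mean against 13.9% in controls, a difference that was not tested. The log2 fold change of Aldh1a2 was −0.15 (SE 0.15, edgeR adjusted p = 0.734), and the interval of 0.725-fold to 1.12-fold leaves out a 2-fold change. Rdh10 ran from 3.91 to 15.2 CPM with blebbistatin (median 9.75) and from 2.83 to 13.6 CPM in controls (median 6.80). Its log2 fold change was 0.41 (SE 0.33, edgeR adjusted p = 0.669), with 6 of 8 treated libraries above the control median.

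Per kb of all exons, which ALDH1A enzyme led differed from explant to explant in both groups. Per length, Aldh1a1 made up 28.7 to 63.5% of the sum of Aldh1a1 and Aldh1a2 with blebbistatin (median 52.1%) and 29.0 to 55.6% in controls (median 44.6%). The mean share was 51.0 ± 11.7% in treated explants, against 44.3 ± 10.7% in controls (SD over 8 each; 2-sided exact permutation test, p = 0.238). Without division by length it was 68.6% in treated explants, against 62.6% in controls (exact permutation test, p = 0.269). On that scale Aldh1a1 led in every library but blebbistatin 6 (46.7%) and control 2 (47.1%). With the longest transcript it led in all but the same libraries (45.7% and 46.1%), so which enzyme led depends on the length used.

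**Figure D3:**
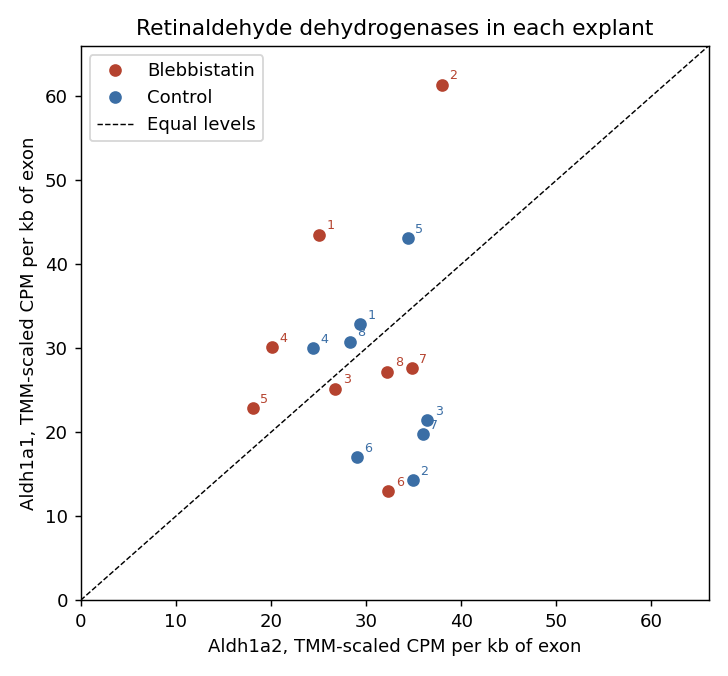
Aldh1a1 against Aldh1a2 in TMM-scaled CPM per kb of exon, 1 point per library with its replicate number, and a dashed line of equal levels. Both groups have libraries on either side of the line, and Aldh1a1 spans a wider range (13.0 to 61.4) than Aldh1a2 (18.1 to 37.9). The side depends on the length used: with the longest transcript, Aldh1a1 led in every library but blebbistatin 6 and control 2.

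How the 8 genes varied together from explant to explant was read within groups. For the 28 pairs, correlations of log2 CPM were computed within each group of 8, so that 56 were tested by exact permutation over pairings. None reached an unadjusted p under 0.05 by Pearson's r, and 0 passed adjustment by Pearson's r or Spearman's rho. By Spearman's rho 1 pair had an unadjusted p under 0.05, Rara with Rarg in treated libraries (rho = 0.76, exact permutation p = 0.0368, adjusted p = 0.582; r = 0.58, exact permutation p = 0.145, adjusted p = 0.901; r = 0.25 without the 2 libraries farthest from the median of Rara). The smallest p of Pearson's r was that of Rarb with Rxra in controls (r = 0.72, exact permutation p = 0.0516, adjusted p = 0.737; rho = 0.67, exact permutation p = 0.0831, adjusted p = 0.582; r = 0.55 without the 2 libraries farthest from the median of Rarb).

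The genes whose pattern was most like that of each synthesis gene were ranked by Pearson's r of log2 CPM with group means removed, over 16 libraries and 9692 genes of at least 5 CPM. These r are the highest of many and carry no p, and the genes of a library share its depth and its mix of cells. For Aldh1a1 they were Timp2 (r = 0.91, rho = 0.87), an inhibitor of matrix metalloproteinases, Upk1b (r = 0.89, rho = 0.88), a uroplakin, Cdh11 (r = 0.87, rho = 0.90), a cadherin of mesenchyme, and Gpm6a (r = 0.87, rho = 0.89), a membrane glycoprotein. Upk1b and Gpm6a belong to the list of epicardial and mesothelial markers used here. For Aldh1a2 they were Itpr1 (r = 0.83), the calcium channel of the endoplasmic reticulum, the collagen Col3a1 (r = 0.82), Ptprq (r = 0.81) and Slc7a3 (r = 0.80), with rho from 0.66 to 0.78. For Rdh10 they were Klf7 (r = 0.83), Cdk7 (r = 0.82), Dpy30 (r = 0.80) and Alg3 (r = 0.77), with rho from 0.67 to 0.73. Without the 2 libraries farthest from the median, r of these 12 pairs ran from 0.60 to 0.88.

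Aldh1a2 was set beside epicardial transcription factors and surface markers, and no correlation passed adjustment. Of 10 correlations, with Wt1, Tbx18, Tcf21, Upk3b and Msln in each group, the smallest p was that of Tcf21 in controls (r = −0.73, exact permutation p = 0.0408, adjusted p = 0.408; rho = −0.67, exact permutation p = 0.0831, adjusted p = 0.649; r = −0.92 without the 2 libraries farthest from the median of Tcf21). In treated libraries that pair had r = 0.44 (exact permutation p = 0.276, adjusted p = 0.926).

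The rest of the pathway was read from lists set by function. Of 11 tested genes of retinoid uptake, storage and binding, 0 passed edgeR and 3 had an unadjusted p under 0.05, where 12.2% of all tested genes had. DESeq2 and limma voom each called 1 higher, Lpl, where they called 2.7% and 0.721% of all genes. The median log2 fold change of the list was 0.18. Lpl, the lipase that frees lipids from lipoproteins, stood at 182 ± 93.7 CPM in treated explants, against 69.7 ± 55.9 CPM in controls (log2 fold change 1.38, SE 0.34, edgeR adjusted p = 0.0593, 0.000811 without control 6, and 0.526 with the epicardial covariate, where the log2 fold change was 0.73). Ttr, the carrier that binds the retinol transporter in blood, had a log2 fold change of 1.75 (edgeR adjusted p = 0.239), and Lrp2, a receptor that takes up that complex, one of −0.68 (edgeR adjusted p = 0.35).

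Of 17 tested enzymes that act on retinol and retinaldehyde, 0 passed edgeR and 2 had an unadjusted p under 0.05, close to the 12.2% of all tested genes, with a median log2 fold change of 0.03. DESeq2 and limma voom each called 1 lower, Dhrs9, where they called 2.7% and 0.721% of all genes. Dhrs9, a short-chain dehydrogenase that oxidises retinol, stood at 12.6 ± 7.50 CPM in treated explants, against 35.8 ± 13.4 CPM in controls (log2 fold change −1.50, SE 0.35, edgeR adjusted p = 0.0527). It passed edgeR without blebbistatin 3 (adjusted p = 0.0367) or control 6 (adjusted p = 0.0339), and 8 of 8 treated libraries were below the control median. In all it passed in 7 of the 28 other fits, where its adjusted p ran from 0.0011 to 0.412. Dhrs3, which turns retinaldehyde back into retinol and is a known target of retinoic acid, had a log2 fold change of 1.07 (edgeR adjusted p = 0.431), Aox1 one of 0.47 (edgeR adjusted p = 0.35) and Rdh14 one of 0.40 (edgeR adjusted p = 0.637). The third ALDH1A enzyme, Aldh1a3, was low at 0.970 CPM in treated explants, against 1.03 CPM in controls.

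Of the list for breakdown of retinoic acid, 3 of 7 genes were tested and 0 passed edgeR, DESeq2 or limma voom, with 1 at an unadjusted p under 0.05. Over all tested genes these shares were 0.606% by edgeR, 2.7% by DESeq2, 0.721% by limma voom and 12.2% at an unadjusted p under 0.05. The 3 genes were the cytochromes P450 Cyp2s1 (log2 fold change 0.59, edgeR adjusted p = 0.35), Cyp4v3 (0.11, edgeR adjusted p = 0.929) and Cyp1b1 (−0.04, edgeR adjusted p = 0.945). The Cyp26 enzymes were not analysed here.

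Of 23 tested partner receptors and coregulators, 0 passed edgeR and 5 had an unadjusted p under 0.05 (12.2% of all tested genes), with a median of 0.11. DESeq2 called Thrb and Ncoa2 higher and Nr4a1 lower (2.7% of all genes called), and limma voom called 0. Nr4a1, an orphan receptor that pairs with RXR, stood at 9.21 ± 2.27 CPM in treated explants, against 20.2 ± 9.78 CPM in controls (log2 fold change −1.13, edgeR adjusted p = 0.0527, and 0.0239 to 0.0433 without blebbistatin 5, control 4 or control 6). It passed in 6 of the 28 other fits, where its adjusted p ran from 0.0024 to 0.646 and its log2 fold change from −1.26 to −0.75. Thrb, a thyroid hormone receptor that also pairs with RXR, stood at 24.8 ± 8.28 CPM in treated explants, against 11.5 ± 5.47 CPM in controls (log2 fold change 1.10, edgeR adjusted p = 0.0848). The coactivator Ncoa2 had a log2 fold change of 0.39 (edgeR adjusted p = 0.118, and 0.0369 without control 6) and Actn4, an actin crosslinker also described as a coactivator, one of −0.28 (edgeR adjusted p = 0.27). Ncoa2 passed in 2 of the 28 other fits, where its adjusted p ran up to 0.81 and its log2 fold change down to 0.17. Rxrb, the other RXR tested, had one of −0.05 (edgeR adjusted p = 0.948).

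Of 17 tested target genes of retinoic acid, 0 passed edgeR and 6 had an unadjusted p under 0.05, 1 higher and 5 lower with blebbistatin, while the list's median was positive at 0.21. Of all tested genes 12.2% had such a p, 973 higher and 938 lower. DESeq2 called Gprc5a and Gprc5b lower (2.7% of all genes called), and limma voom called 0. Gprc5a, an orphan receptor named for its induction by retinoic acid, stood at 7.75 ± 3.82 CPM in treated explants, against 20.99 ± 8.04 CPM in controls (log2 fold change −1.43, SE 0.33, edgeR adjusted p = 0.0524). It passed edgeR without blebbistatin 2 (adjusted p = 0.0306), blebbistatin 5 (adjusted p = 0.0357) or control 6 (adjusted p = 0.0205), and with the epicardial covariate its log2 fold change was −0.67 (adjusted p = 0.657). Its relative Gprc5b had a log2 fold change of −1.20 (edgeR adjusted p = 0.0912), the actin-binding protein gene Rai14 one of −0.41 (edgeR adjusted p = 0.206) and the growth factor gene Gdnf, low at 1.301 CPM in treated explants, against 0.238 CPM in controls, one of 2.44 (edgeR adjusted p = 0.305, and a log2 fold change of 1.61 with the epicardial covariate). The target Dhrs3, given above, had a positive value, and 10 of the 17 genes did, against 7 with negative values. Of all 15675 tested genes 8475 had positive and 7200 negative values. The list named 38 genes, of which these 17 were tested.

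**Figure D4:**
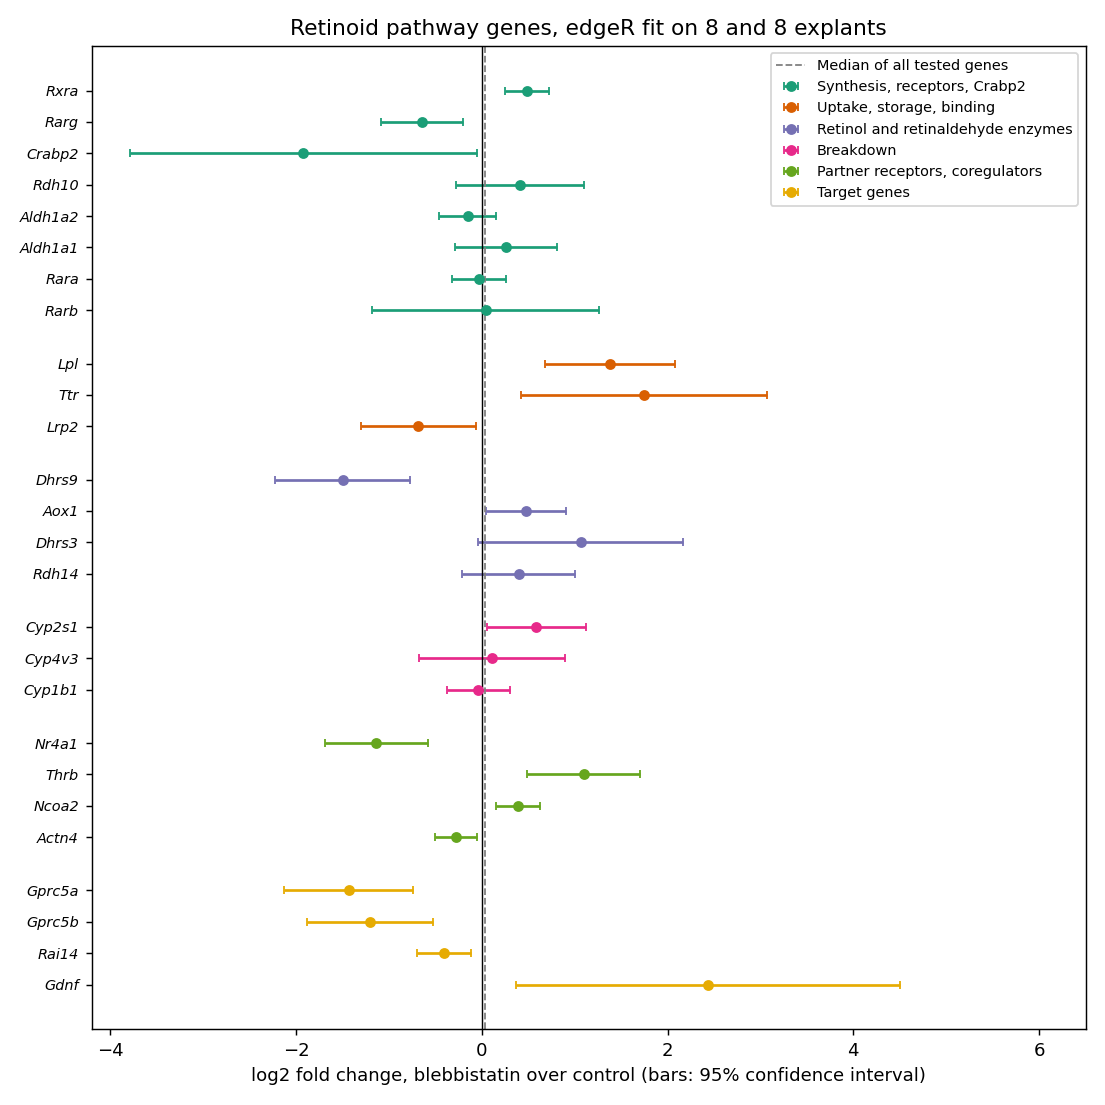
Log2 fold changes of the 8 genes and of up to 4 genes of smallest p from each pathway list, blebbistatin over control, with 95% confidence intervals from edgeR and the median of all tested genes as a dashed line. Among the 8 genes, the intervals of Rxra (higher) and of Rarg and Crabp2 (lower) leave out 0. Those of the list genes, picked by their p, also leave out 0, except for Dhrs3, Rdh14, Cyp4v3 and Cyp1b1. None of the genes shown passed adjustment over all genes in edgeR.

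The explants held markers of epicardium and of other cells. Sums and compared mean log2 levels of marker lists, here and below, use CPM without TMM factors, while values of single genes include them. Wt1, Tbx18, Tcf21, Upk3b and Msln, which mark epicardium and mesothelium, stood at 65.5, 31.4, 68.3, 634 and 273 CPM with blebbistatin and at 75.5, 50.3, 62.0, 824 and 468 CPM in controls. The epicardial list, 22 of 23 genes in the table and Aldh1a2 among them, summed to 2371 to 6177 CPM with blebbistatin and 3578 to 7613 CPM in controls (p = 0.0749 by exact permutation, or 0.187 after adjustment for 10 measures). Of its 22 genes 19 had negative log2 fold changes, where 7200 of all 15675 tested genes had. By its mean log2 level the list was lower with blebbistatin (difference −0.54, exact permutation test, p = 0.00404, adjusted p = 0.0283). The epicardial covariate was the list's mean log2 level on the TMM scale, computed without Aldh1a2. With it the log2 fold change of Rxra was 0.50 (edgeR adjusted p = 0.304), that of Rarg −0.48 (adjusted p = 0.746) and that of Crabp2 −0.72 (adjusted p = 0.917). In that fit 0 of all tested genes passed. Since the list's mean log2 level was itself lower with blebbistatin, the fit cannot tell its part in a difference from that of blebbistatin.

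Macrophage and leukocyte markers, 13 of 13 in the table, summed to 273 to 3855 CPM with blebbistatin and 310 to 4597 CPM in controls. Endothelial markers, 8 of 11, summed to 55.0 to 253 CPM with blebbistatin and 70.4 to 194 CPM in controls. Cardiomyocyte markers, 7 of 13, summed to 675 to 1236 CPM with blebbistatin and 446 to 1016 CPM in controls (adjusted p = 0.0544 by exact permutation). Their mean log2 level differed by 0.06 (adjusted p = 0.988 by exact permutation), and Tnnt2, named after its values were seen, made up most of the sum with 853 CPM in treated explants, against 540 CPM in controls. Fibroblast markers, 13 of 13, summed to 9515 to 17767 CPM with blebbistatin and 13929 to 19352 CPM in controls (adjusted p = 0.0935 by exact permutation). These 13 genes did not move as one: 6 had positive and 7 had negative log2 fold changes, from −1.21 to 0.82. Neural crest and glia markers, 2 of 7, summed to at most 10.3 CPM in every library. Cdh5, Tie1 and Emcn of the endothelial list, Myh7, Tnni3, Nppa, Myl2, Myl3 and Pln of the cardiomyocyte list and Sox10 of the glial list were not analysed here. The mitochondrial share of the counts was higher with blebbistatin, 21.4 ± 3.21% against 16.4 ± 1.70% in controls (SD, n = 8 each; exact permutation test, p = 0.00326, adjusted p = 0.0326), and without mitochondrially encoded genes the log2 fold change of Rxra was 0.49 (edgeR adjusted p = 0.055). Y-linked genes, 4 of 4, summed to 6.04 to 180 CPM with blebbistatin (median 144) and 3.81 to 177 CPM in controls (median 7.08, adjusted p = 0.244 by exact permutation). With the mean log2 level of the 3 that were tested as a covariate, on the TMM scale, the log2 fold change of Rxra was 0.46 (edgeR adjusted p = 0.221). What part these markers have in the values above was not tested beyond the covariate fits given.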

How the data were processed

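The authors deposited a table of raw counts of reads per gene with a column for each of the 16 explants. Among the tools listed in the submitters' processing notes are HTSeq 0.6.1p1 and edgeR, besides SAMtools 1.3, TopHat2 2.1.0 and Bowtie2 2.2.6.0, and the build listed is mm10 (GRCm38). Their roles, the annotation release, the strand setting and any filter: not given in the sources used here. Every gene of the table exceeded 1 CPM in at least 4 libraries. RNA was amplified with an Ovation kit before Nextera XT libraries were made, per the labels' protocols, and the counts carry no molecular identifiers.

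Counts were filtered with filterByExpr (15675 genes kept, 130 removed), scaled by TMM and tested with edgeR 4.0.16 (R 4.3.3; robust quasi-likelihood fit, group as the only term, Benjamini-Hochberg adjustment over all tested genes, threshold 0.05). The biological coefficient of variation was 50.1%. DESeq2 1.42.0, limma 3.58.1 (voom), other normalizations, filters, covariates, a replicate block and fits without each library in turn were alternatives. For log2 CPM the prior count was 2. Exact permutation tests of single values enumerated every assignment of the 16 libraries to groups of 8, and those of correlations every pairing of 8 (SciPy 1.17.1).

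The genes and lists were chosen with earlier results of these data known. Named are the 8 genes with counts, of each pathway list any gene called plus up to 4 of smallest p, for each synthesis gene the 4 most alike, and 5 epicardial markers; Aldh1a3, Aldh1a7, Rxrb, Tnnt2 and Top2b were added after their values were seen. The values of 1 gene that the rule picks are not reported here. The replicate numbers in the titles were not taken as a pairing, by a check given in the closing section that cannot exclude one. The intervals and floors cover counting or sampling error only.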

Additional observations from a re-analysis of the deposited data

Results flagged for a closer look

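One value stood apart from its group. Rarb in control 7 was at 6.98 CPM, and its distance to the next control took up 0.658 of the range of the 8 controls, above the critical 0.526 of Dixon's test. In all, 18 groups of 8 values were examined this way (the 8 genes and the share of Aldh1a1, in each group), and chance marks about 1 group in 20. Without control 7, and with each other library left out in turn, the log2 fold change of Rarb ran from −0.30 to 0.60.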

How the results depend on the processing

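Of the 8 genes, edgeR called 0, and 1 (Rxra) with at least 5 CPM in 8 libraries, the replicate block, the macrophage covariate or DESeq2, with 0 to 1 as each library was left out. Over all genes the count of 95 was 170 with that filter, 177 with the block, 230, 0 and 21 with macrophage, epicardial and Y-linked covariates, 424 with DESeq2, 0 by exact permutation, and 44 to 206 without single libraries (180 without blebbistatin 5, 49 without 6 and 62 without 8; 60, 58, 52, 206, 44 and 54 without control 1, 2, 4, 6, 7 and 8). Calls in the pathway lists were 0 at the outset: uptake and binding had 1 with the block, the macrophage covariate, DESeq2 or voom; the enzymes 1 with the filter, the block, the macrophage covariate, DESeq2 or voom; the coregulators 2 with the filter, 1 with the macrophage covariate and 3 with DESeq2; the targets 1 with upper-quartile factors, the filter, the block or the macrophage covariate and 2 with DESeq2. Without single libraries these ran from 0 to 2 (coregulators) and 0 to 1 (the other 3). The count of 0 by exact permutation is limited by the smallest p which that test can give, 0.000155. The causes were not tested.

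Signs turned only for values near 0, or with the epicardial covariate. Rarb was −0.01 with the macrophage covariate (−0.0096), −1.06 with the epicardial one, −0.055 in voom and −0.30 to 0.60 without single libraries. Rara was 0.0071 with the epicardial covariate and −0.084 to 0.026 without single libraries. With the epicardial covariate Lrp2 was 0.16, Aox1 −0.0017, Dhrs3 −0.33, Cyp4v3 −0.50 and Cyp1b1 0.31. Cyp4v3 was −0.11 with the Y-linked covariate and −0.077 to 0.24 without single libraries, and Cyp1b1 −0.10 to 0.038. Mean log2 levels in place of sums gave differences of 0.011 for macrophage and −0.028 for endothelial markers, whose sums differed by −119 and 1.83 CPM. With the replicate block the log2 fold change of Rxra was 0.48 (edgeR adjusted p = 0.0371), that of Crabp2 −3.47 (0.264) and that of Gdnf 3.16 (0.15), and Lpl (0.0293), Dhrs9 (0.0256) and Gprc5a (0.0389) passed. Same-numbered libraries correlated at 0.0039 to 0.279 in their deviations from the group means, and 2 of 8 matched their own number best. Since not every pair was over 0.1 and the labels name no shared source, the numbers were not taken as a pairing. That check cannot exclude a pairing, so whether the explants were paired is not settled. The filter at 5 CPM removed Rarb and Crabp2.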
